A study of Rattus norvegicus with 6 samples.

Results

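Peptide transmitters and their receptors are measured here in pancreatic islets, the clusters of hormone-secreting cells in the pancreas, of 3-month-old and 12-month-old rats. The 10 genes are Kiss1 (kisspeptin), its receptor Kiss1r, and the precursors of 8 neuropeptides: Vip, Gal, Tac1, Calca, Cartpt, Grp, Adcyap1 and Penk. They were picked by name as peptide genes of the islet and its nerves, with the low 12-month signal of Kiss1 already known, and are 10 of 13903 genes with a named probe on the array. The age differences of these genes are therefore given as a description, with no p-value, and the number that passed a threshold stands only beside the share of all genes that did. All animals were male Wistar rats with no treatment named in the labels, their islets were taken out by collagenase digestion, and total RNA was labelled with the dye Cy3 and hybridised to 1-colour arrays. There were 3 arrays from 12-month-old and 3 from 3-month-old rats, and the series description names 3 rats of each age.

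Neuropeptides are cut from larger precursors in dense-core granules, often amidated at the end of the chain, and released beside classical transmitters. In the pancreas they come from parasympathetic, sympathetic and sensory fibres that enter the islet, and some are made by endocrine cells themselves. Most of their receptors couple to G proteins and raise or lower cyclic AMP or calcium in the hormone-secreting cells. In bulk islet RNA, fewer cells of a type and less RNA per cell cannot be told apart.

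Several of these genes are textbook targets of cyclic AMP signalling, through the 8-letter response element TGACGTCA or its 5-letter core TGACG. RefSeq promoter windows of assembly GRCr8, from 250 bases before to 50 after a transcript start, were given for 9 of the 10 genes. That start was the outer end of the gene in 4 of the 9, Kiss1, Kiss1r, Grp and Gal. In the other 5 it lay inside the annotated gene, by 248 bases for Vip, 559 for Cartpt and 59 for Calca, so that the Vip and Cartpt stretches below fall within the span of a longer transcript. They were searched on both strands, where the core reads CGTCA on the opposite strand and every full element also holds the core. The full element was present in 1 of the 9 windows, that of Cartpt, and in 1.83% of all 33469 windows. The core was present in 7 of the 9 windows and in 21.2% of all windows, and Kiss1r and Adcyap1 did not hold it. The stretches around the match are shown for the 4 genes with the lowest or highest 12-month signal relative to 3 months that hold the core, and for Cartpt. Distances count from the start that the window was set on. Each stretch has 30 bases, reads 5′ to 3′ along the gene, and has the element or core in capitals. A match describes letters only.
Kiss1, chr13:47327098-47327127, plus strand, 49 bases before the start: tatgctgggataCGTCAcccatccagactt
Vip, chr1:44470371-44470400, plus strand, 97 bases before the start: ggatcaccactgTGACGtctttcgaggagc
Grp, chr18:61658557-61658586, plus strand, 86 bases before the start: gctatagggagaCGTCAgtgtgctcaggtc
Calca, chr1:178317624-178317653, minus strand, 112 bases before the start: gaagcaccgaggTGACGcaatctgtctggg
Cartpt, chr2:32991359-32991388, minus strand, 142 bases before the start: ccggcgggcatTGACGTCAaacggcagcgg
The core was thus in 4 of the 5 genes that read lower at 12 months, all but Kiss1r, in Calca, which read higher, and in Gal and Tac1, whose arrays overlapped between the ages.

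The arrays of the ages differed before any gene was compared. The scanner read the ages in separate sessions, and scan therefore cannot be told apart from age. The median of the negative control spots, which match no transcript, was 30.2 ± 0.764 scanner units at 3 months and 90.5 ± 0.866 at 12 months (SD, n = 3 each). A spot of equal brightness at both ages therefore reads lower relative to the controls at 12 months. The share of probes that the scanner software marked as well above background was 75.6% ± 2.29 at 3 months and 61.2% ± 2.62 at 12 months. Before normalization the 75th percentile of the log2 signal was between 8.46 and 10.52 on the 3-month arrays, where replicate 1 was the dimmest, and between 10.21 and 11.35 on the 12-month arrays. The levels below are quantile-normalized log2 signals, on which a difference of 1 is a 2-fold change, and the median difference over the 11200 genes tested was −0.13. All 7 islet endocrine markers, the insulins, glucagon, somatostatin, pancreatic polypeptide, islet amyloid polypeptide and chromogranin A, were well above background on all 6 arrays. None of the 7 passed the test between the ages, with a median difference of 0.19 that became −0.22 when arrays were shifted to a common 75th percentile.

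Of the 10 genes, 5 read lower on every 12-month array than on every 3-month array (Kiss1, Kiss1r, Vip, Grp and Cartpt) and 1 read higher (Calca). The ages overlapped for Gal, Tac1 and Penk, and Adcyap1 cleared background on none of the 6. No 12-month Kiss1 reading was well above background. The lowest signal so marked was 5.13 and 5.02 on 12-month replicates 2 and 3, above the Kiss1 reading of 4.83 on 3-month replicate 2. Whether the ages overlap for Kiss1 is therefore not settled by these readings. For Grp only 12-month replicate 1 was well above background at that age. The test took genes whose probe cleared background on 3 or more of the 6 arrays, which 9 of the 10 did, and 7 cleared it on all 6. Over all genes tested, 39.4% had ages that did not overlap, 22.3% lower and 17.1% higher at 12 months. At an adjusted p under 0.05 (limma) 1 of the 9 was called, Kiss1, which was lower, beside 7.86% of all genes tested, 2.98% lower and 4.88% higher. Kiss1 entered the test through its 3-month arrays alone. The looser threshold used in the study asks for more than a 2-fold change and an unadjusted p under 0.05. The published gene lists took that p from comparing the arrays in pairs, whereas here it came from limma. The counts are therefore not the calls of the study. With limma the threshold took 5 of the 9, 4 lower (Kiss1, Kiss1r, Vip and Grp) and 1 higher (Calca). Of all genes it took 19.5%, 9.67% lower and 9.8% higher. Since the choice of genes had these values in view, nothing is read from the counts. The median difference over the 9 genes was −0.74.

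**Figure D1:**
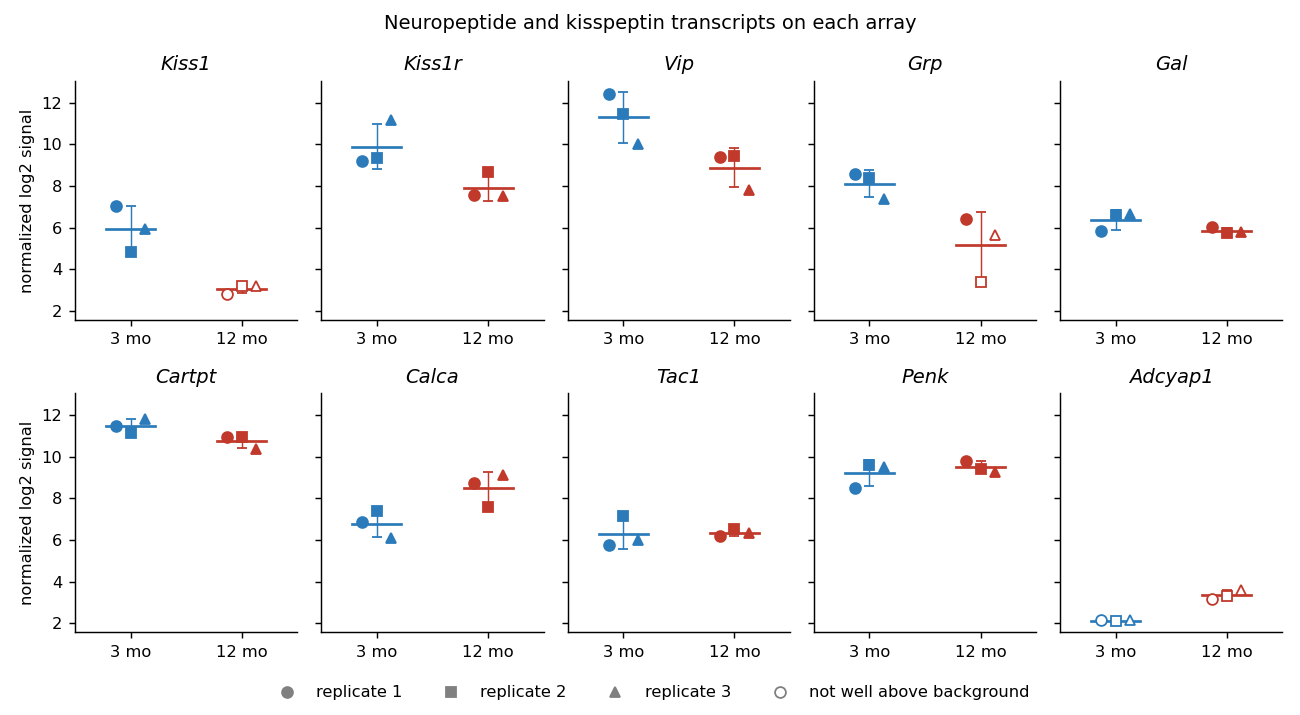
Normalized log2 signal (vertical axis) of the 10 genes on each array, 3-month in blue and 12-month in red; horizontal lines are means and bars are SD (n = 3 each), symbols mark replicates, and open symbols are not well above background. Kiss1, Kiss1r, Vip, Grp and Cartpt lie lower and Calca higher on all 3 of the 12-month arrays, while Adcyap1 is open on all 6.

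Kisspeptin is the amidated peptide best known for driving gonadotropin-releasing hormone neurons, and it has been studied in islets as a peptide that acts on insulin secretion. The Kiss1 level was 7.03, 4.83 and 5.91 on 3-month replicates 1 to 3, all well above background. It was 2.82, 3.21 and 3.19 on the 12-month arrays, none of them well above background. The 12-month values are therefore only an upper limit.

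The mean Kiss1 level was 5.92 ± 1.101 at 3 months and 3.07 ± 0.22 at 12 months (SD, n = 3 each), a difference of −2.85 with a standard error of 0.54. The 3-month level was 2.17-fold above the lowest signal that counted as well above background on each 12-month array, a mean of 4.80. That is no lower bound across background corrections, since the normexp difference given below was under 2-fold. The spots themselves show how dim this probe was. Before background subtraction the median Kiss1 spot read 76.5, 58.0 and 100 scanner units at 3 months and 94.0, 94.0 and 87.0 at 12 months, so that the ages overlapped in plain brightness. Relative to the negative controls of the same array the Kiss1 spot was 2.59, 1.93 and 3.23 times as bright at 3 months. At 12 months it was 1.03, 1.03 and 0.972 times as bright, which is the level of spots that match no transcript. With the normexp background correction, which damps low signals, the difference was −0.90 and Kiss1 no longer passed the adjusted threshold. Leaving out each array in turn gave differences between −3.40 and −2.29.

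Kiss1r encodes the Gq-coupled receptor of kisspeptin. The Kiss1r level was 9.20, 9.34 and 11.15 at 3 months and 7.56, 8.65 and 7.51 at 12 months, well above background on all 6 arrays. The ages did not overlap, but 3-month replicate 3 stood well above the other 3-month arrays. The difference was −1.99 with a standard error of 0.60, a 3.96-fold lower mean, and it was −1.36 without 3-month replicate 3. Before normalization between arrays, the background-subtracted signal was 177, 577 and 2771 scanner units at 3 months and 374, 634 and 180 at 12 months. On that scale the ages overlapped, and they were separate only after normalization. Whether Kiss1 and its receptor shared a peak array also turned on the scale. After normalization Kiss1 read highest on 3-month replicate 1 and Kiss1r on 3-month replicate 3, while before it both read highest on 3-month replicate 3.

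**Figure D2:**
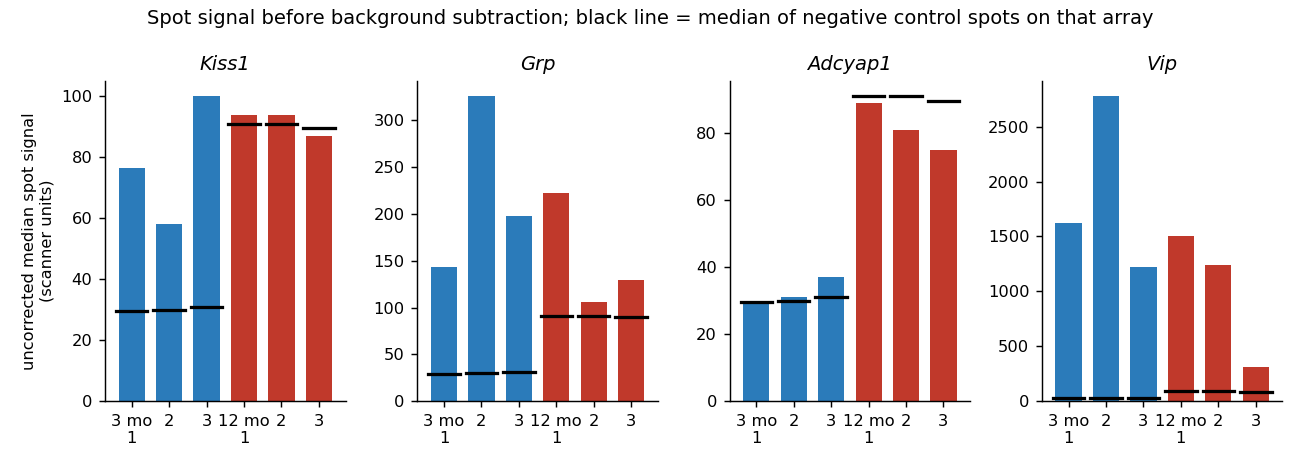
Median spot brightness in scanner units before background subtraction (vertical axis, from 0) on each array for Kiss1, Grp, Adcyap1 and Vip, 3-month in blue and 12-month in red; black lines are the median of the negative control spots of that array. The 12-month Kiss1 spots, between 87.0 and 94.0, lie at the control lines of 89.5 to 91.0, and the Adcyap1 spots lie near the lines on all 6 arrays.

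VIP is the vasodilator peptide of parasympathetic pancreatic neurons and potentiates glucose-induced insulin release. The Vip level was 12.44, 11.45 and 10.02 at 3 months and 9.41, 9.43 and 7.82 at 12 months, well above background throughout. Every 12-month array lay below every 3-month array, although the 3-month arrays alone spanned more than 2 log2 units. The difference was −2.42 with a standard error of 0.71, a 5.34-fold lower mean. It ranged from −3.06 to −1.85 with each array left out. Before normalization the log2 signal was 10.64, 11.44 and 10.20 at 3 months and 10.48, 10.18 and 7.80 at 12 months, where the ages overlapped. Relative to the negative controls they did not, with the Vip spot 39.3 to 92.5 times as bright at 3 months and 3.54 to 16.6 times at 12 months. That ratio also holds the brighter controls of the 12-month arrays. In plain spot brightness the ages overlapped, at 1619, 2775 and 1219.5 scanner units at 3 months and 1507, 1240.5 and 317 at 12 months.

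PACAP, encoded by Adcyap1, is the peptide most like VIP and shares its receptors. Its probe read 1.02, 1.03 and 1.19 times the negative controls at 3 months and 0.978, 0.890 and 0.838 times at 12 months. No array marked it as well above background, so that Adcyap1 was not detectable here and has no direction. The receptors of the pair with a probe were Vipr2, at 11.40 ± 0.54 and 11.39 ± 0.44 (SD, n = 3 each) with a difference of −0.01 and a 95% interval from −0.89 to 0.87, and Adcyap1r1, well above background on 2 of the 3-month arrays and 1 of the 12-month arrays. Both were named after their values were seen. The low 12-month Vip signal thus stood beside a Vipr2 level whose ages overlapped.

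GRP is the mammalian bombesin-like peptide of pancreatic nerves and a stimulant of insulin and glucagon release. The Grp level was 8.58, 8.40 and 7.35 at 3 months, all well above background. At 12 months it was 6.43, 3.38 and 5.64, and only replicate 1 was well above background. The difference was −2.96 with a standard error of 0.79. Only 1 array measured Grp above background at 12 months, so that its rank in size beside Kiss1 and Vip is not defined, and under normexp its −1.61 was smaller in size than the −2.20 of Vip.

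The Grp spots read 4.85, 10.8 and 6.39 times the negative controls at 3 months and 2.44, 1.16 and 1.44 times at 12 months, without overlap. In plain spot brightness they overlapped, at 143, 325 and 198 scanner units at 3 months and 222, 106 and 129 at 12 months. The background-subtracted log2 signal before normalization did overlap, from 6.94 to 8.22 at 3 months and from 3.69 to 7.27 at 12 months. Leaving out each array gave −3.60 to −2.08. The GRP receptor Grpr, named after its values were seen, was well above background on 1 array only, a 3-month one, and was not tested.

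Cartpt encodes the CART peptides, which are found in sensory fibres of the pancreas and in endocrine cells of the islet. The Cartpt level was 11.47, 11.12 and 11.82 at 3 months and 10.92, 10.93 and 10.35 at 12 months. The ages did not overlap, and lay nearest between 3-month replicate 2 and 12-month replicate 2. The difference was −0.74 with a standard error of 0.30, a 1.67-fold lower mean. Before normalization the ages overlapped, with log2 signals from 9.61 to 12.18 at 3 months and from 10.25 to 11.91 at 12 months.

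Galanin, encoded by Gal, is a peptide of sympathetic nerves that lowers insulin release. The Gal level was 5.82, 6.63 and 6.64 at 3 months and 6.01, 5.73 and 5.80 at 12 months. The ages overlapped through 3-month replicate 1, and the difference was −0.52 with a standard error of 0.30. It was −0.90 when arrays were shifted to a common 75th percentile, a scaling that also moved the median of all genes from −0.13 to −0.34.

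Calca was the one gene of the 10 that read higher at 12 months without overlap. Its primary transcript is spliced to calcitonin or to the sensory peptide CGRP. The brightest Calca probe, for the RefSeq transcript NM_017338, read 6.87, 7.37 and 6.07 at 3 months and 8.75, 7.58 and 9.11 at 12 months. The difference was 1.71 with a standard error of 0.50, a 3.27-fold higher mean. The ages lay nearest between 3-month replicate 2 and 12-month replicate 2. Before normalization they did not overlap either, with log2 signals from 5.55 to 7.17 at 3 months and from 8.17 to 9.80 at 12 months, but relative to the negative controls they did.

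A second Calca probe, for NM_001033955, read 5.13, 6.60 and 5.95 at 3 months and 7.70, 7.91 and 7.12 at 12 months, and a probe for NM_001033956 read 4.86, 6.20 and 5.78 and then 7.56, 7.77 and 6.98. Their differences were 1.68 and 1.82, and neither overlapped. The 3 probes target transcripts of 1 gene and are not replicates, and which of them reports calcitonin and which CGRP is not given in the sources used here. The order of the 12-month arrays differed between them: NM_017338 read highest on replicate 3, where both other probes read lowest. Calcb, the gene of the second CGRP, named after its values were seen, differed by 0.78, and its ages overlapped, from 10.86 to 12.66 at 3 months and from 11.72 to 12.96 at 12 months.

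Tac1 encodes substance P and neurokinin A, the tachykinins of sensory nerves. The brightest Tac1 probe read 5.75, 7.15 and 5.997 at 3 months and 6.17, 6.52 and 6.36 at 12 months. The 12-month arrays lay inside the 3-month range, and the difference was 0.05 with a standard error of 0.40. The 4 Tac1 probes, 1 for each of 4 transcripts, gave differences between 0.05 and 0.19, and all 4 overlapped. No direction is given for Tac1, since shifting arrays to a common 75th percentile turned its difference to −0.29.

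Penk encodes the enkephalins, opioid peptides of enteric and islet tissue. The Penk level was 8.48, 9.61 and 9.50 at 3 months and 9.80, 9.40 and 9.26 at 12 months, well above background throughout. The ages overlapped, with a difference of 0.29 and a standard error of 0.37. Without 3-month replicate 1, the lowest array, it was −0.07.

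**Figure D3:**
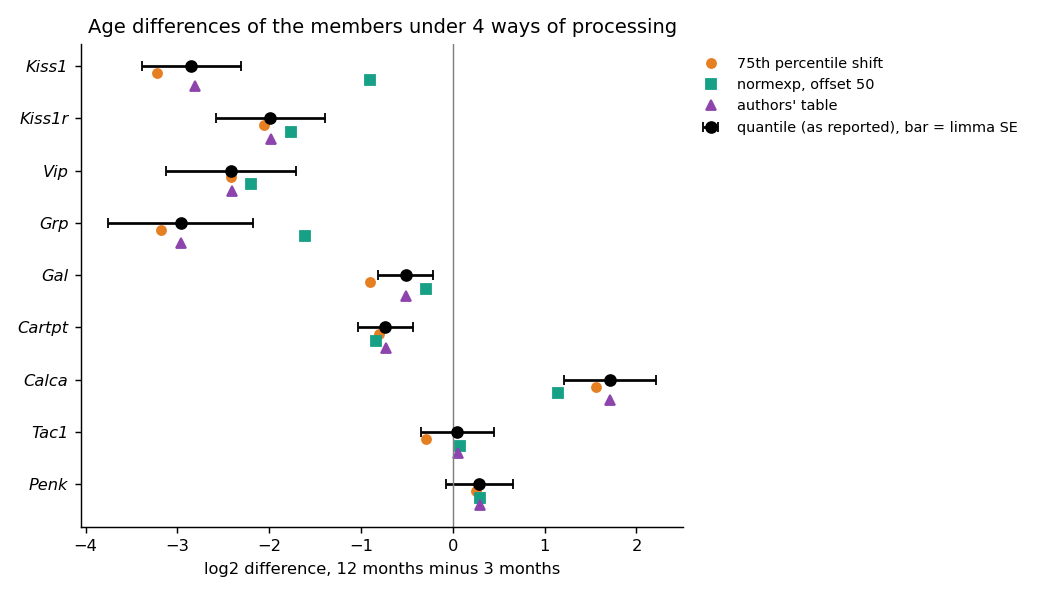
Difference in log2 signal, 12 months minus 3 months (horizontal axis), of the 9 tested genes under 4 ways of processing; black points with bars are the quantile-normalized values and their limma standard errors. The normexp values of Kiss1 (−0.90) and Grp (−1.61) lie more than 1 log2 unit from their black points (−2.85 and −2.96), and those of Kiss1r (−1.76) and Vip (−2.20) lie within the bars.

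The spread between arrays of one age was a measure that the choice of genes did not use, and it was wide for 5 of the 9. The SD within an age, pooled over both ages, was larger for Grp than for 95.9% of the genes tested, for Vip than for 93.8%, for Kiss1r than for 88.9%, for Kiss1 than for 84.9% and for Calca than for 81.6%. Gal and Cartpt, at 41.5% and 40.8%, were near the middle of all genes, and Penk and Tac1 lay between, at 60.2% and 66.4%. The genes with the largest age differences in size were thus also those that differed most between arrays of one age.

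Of the receptors of these peptides and their accessory proteins, 17 of 19 listed genes had a probe and 11 were tested. At an adjusted p under 0.05 (limma) 1 rose and 1 fell, beside 4.88% and 2.98% of all genes tested, and the median difference was −0.01. Ramp3, an accessory protein of the calcitonin-family receptors, fell by 1.32 on the log2 scale (SE 0.30, adjusted p = 0.0451), from 12.63 ± 0.45 at 3 months to 11.31 ± 0.19 at 12 months (SD, n = 3 each), and its ages did not overlap. Tacr1, the substance P receptor, rose by 1.52 (SE 0.29, adjusted p = 0.0291), from 3.84, 3.43 and 3.29 to 5.01, 5.40 and 4.69.

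Tacr1 was a dim probe, well above background on 2 of the 12-month arrays, and with normexp correction its difference was 0.41 and was not called (limma adjusted p = 0.104). Under the 75th percentile shift it was 0.85 and also not called (limma adjusted p = 0.225). The largest differences that did not pass were those of Ramp2, at 2.05 (limma adjusted p = 0.0879), of the galanin receptor Galr1, at −1.95 (limma adjusted p = 0.0934), and of the CGRP receptor subunit Ramp1, at −1.56 (limma adjusted p = 0.0773). The 3 RAMP proteins, which pair with the calcitonin receptor or its relative, thus had differences of both signs. The calcitonin receptor, Calcr, and its relative Calcrl cleared background on none of the 6 arrays.

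Of 26 other neuropeptide genes 24 had a probe and 21 were tested, with a median difference of −0.34. None rose and 1 fell, beside 4.88% and 2.98% of all genes tested. Pomc, the precursor of ACTH and beta-endorphin, fell by 1.09 (SE 0.22, limma adjusted p = 0.0349), from 12.18, 11.84 and 11.98 to 10.95, 10.87 and 10.92. The urocortins, peptides of the corticotropin-releasing hormone family, held the largest differences that did not pass. These were −2.06 for Ucn (limma adjusted p = 0.0895), −1.77 for Ucn2 (limma adjusted p = 0.0603) and 1.49 for Ucn3 (limma adjusted p = 0.174), the urocortin of mature beta cells. Ucn2 cleared background on none of the 12-month arrays. Its 3-month level was 1.01-fold the mean over the 12-month arrays of the lowest signal that counted as well above background.

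Enzymes that make or degrade the peptides gave no calls. Of 9 processing enzymes 8 were tested, with a median difference of 0.05 that became −0.41 under the 75th percentile shift, so that no direction is given. The largest were those of the convertase Pcsk1, at 0.59 (limma adjusted p = 0.172), of cathepsin L, Ctsl, at 0.53 (limma adjusted p = 0.425), and of the amidating enzyme Pam, at 0.48 (limma adjusted p = 0.212). All 9 degrading peptidases were tested, with a median of −0.10. The aminopeptidase Anpep differed by −0.91 (limma adjusted p = 0.224), the endothelin-converting enzyme Ece1 by 0.67 (limma adjusted p = 0.205) and the prolyl endopeptidase Prep by −0.65 (limma adjusted p = 0.126).

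**Figure D4:**
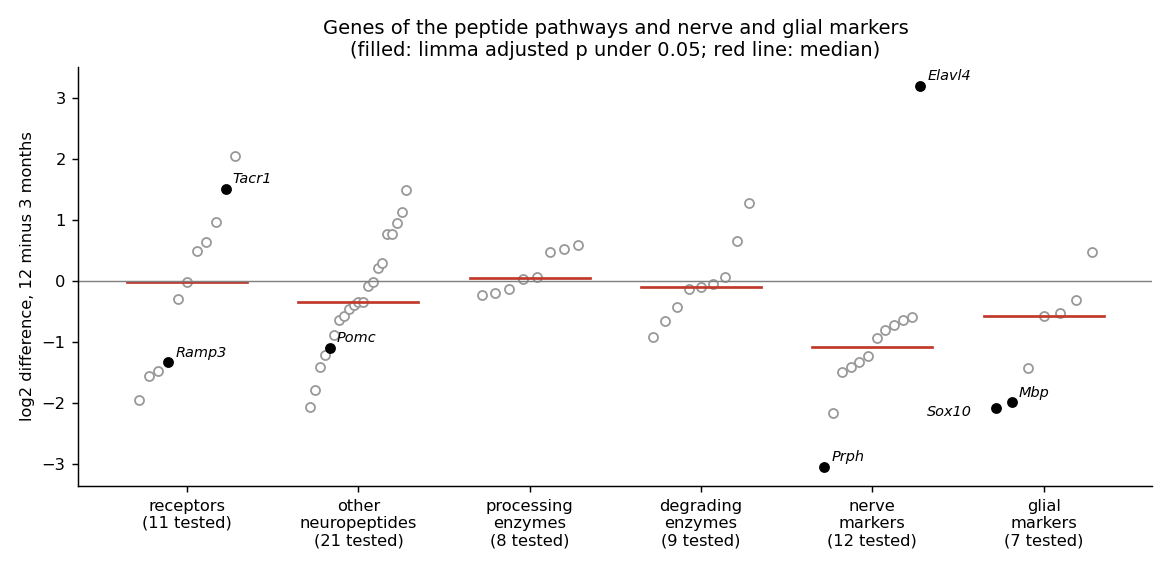
Difference in log2 signal, 12 months minus 3 months (vertical axis), of the tested genes of 6 lists; filled points have a limma adjusted p under 0.05 and red lines are list medians. The medians lie near 0 for receptors (−0.01), processing (0.05) and degrading enzymes (−0.10), and at −1.07 for nerve markers and −0.56 for glial markers.

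Marker genes of nerves and glia were read beside the peptides that nerves carry. They are read as gene lists, since bulk RNA does not show which cells hold a transcript. Of 16 nerve markers 14 had a probe and 12 were tested, all 12 well above background on all 6 arrays. The difference was below 0 for 11 of the 12, also under the 75th percentile shift and normexp, with a median of −1.07. At an adjusted p under 0.05 (limma) 1 fell and 1 rose, beside 2.98% and 4.88% of all genes tested. Prph, the intermediate filament peripherin of peripheral neurons, fell by 3.04 (SE 0.58, limma adjusted p = 0.0299), from 12.03, 11.10 and 10.02 to 8.57, 8.26 and 7.20.

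Elavl4, a neuronal RNA-binding protein, rose by 3.21 (SE 0.67, limma adjusted p = 0.0372), from 4.26, 6.80 and 4.99 to 8.60, 7.93 and 9.15. Dbh, the noradrenaline-making enzyme of sympathetic nerves, differed by −2.15 (limma adjusted p = 0.0672), the autonomic factor Phox2a by −1.48 (limma adjusted p = 0.0624) and the cholinergic vesicle transporter Slc18a3 by −1.40 (limma adjusted p = 0.0864). Nos1 cleared background on no array, and Elavl3 on 1 only. The summed log2 signal of the list was between 13.80 and 14.59 at 3 months and between 13.27 and 13.32 at 12 months, without overlap. Vip, Prph and Dbh were each highest on 3-month replicate 1 and lowest on 12-month replicate 3 after normalization, and each highest on 3-month replicate 2 and lowest on 12-month replicate 3 before it. After normalization the same arrays were highest and lowest for Slc18a3, Phox2a, Nefl and Nefm, but not for the other tested markers. Th peaked on 3-month replicate 3, and Gap43, Stmn2 and Chrna3 on 3-month replicate 2. Nefh was lowest on 12-month replicate 2, and Elavl4 went the other way. What part the nerve transcripts had in the low 12-month Vip and Grp signals was not tested.

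Of 11 glial markers 10 had a probe and 7 were tested, with a median of −0.56. Of these 2 fell and none rose, beside 2.98% and 4.88% of all genes tested. Mbp, myelin basic protein, fell by 1.98 (SE 0.31, limma adjusted p = 0.0184), from 9.21, 9.11 and 9.54 to 7.39, 7.73 and 6.80. Of the 6 Mbp probes 5 read lower, and the other differed by 0.55. The glial factor Sox10 fell by 2.08 (SE 0.38, limma adjusted p = 0.0335), from 8.45 and 8.35 to 6.59, 6.66 and 5.71; its spots on 3-month replicate 1 were marked as outliers and gave no value. S100b differed by −1.42 (limma adjusted p = 0.0714) and Ngfr by −0.56 (limma adjusted p = 0.174).

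The Schwann cell markers Cdh19 and Erbb3 cleared background on no array. The summed glial log2 signal was between 11.98 and 12.09 at 3 months and between 10.998 and 11.42 at 12 months. Among markers of other cells, 1 mesenchymal gene of 4 tested was called higher, beside 4.88% of all genes tested, with a list median of 1.61. The called gene was Pdgfrb, which rose by 1.68 (SE 0.38, limma adjusted p = 0.0453). All 4 read higher at 12 months without overlap, as did 17.1% of all genes tested. No acinar, duct, endothelial or immune marker passed, with list medians of 0.10, 0.03, −0.59 and −0.06, and the acinar and duct medians turned negative under the 75th percentile shift. The part of these cells in the differences of the peptide genes was not tested.

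Across the 6 lists of peptide, enzyme, nerve and glial genes, 7 of 68 tested genes passed, beside 7.86% of all genes tested. None of the 7 was called once 12-month replicate 1 was left out, and the same held for 12-month replicate 3 and for 3-month replicate 1. Without 12-month replicate 2 the calls of Tacr1, Prph, Elavl4, Sox10 and Mbp were kept, without 3-month replicate 2 those of Elavl4 and Mbp, and without 3-month replicate 3 that of Prph. The differences themselves stayed near their full values, from −2.19 to −1.73 for Mbp, from −3.55 to −2.55 for Prph and from −1.57 to −1.14 for Ramp3, and calls over all probes also fell, from 1502 to 208, 288 and 322 without those first 3 arrays. The signs of all 7 differences were the same under every alternative that gave a value.

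**Figure D5:**
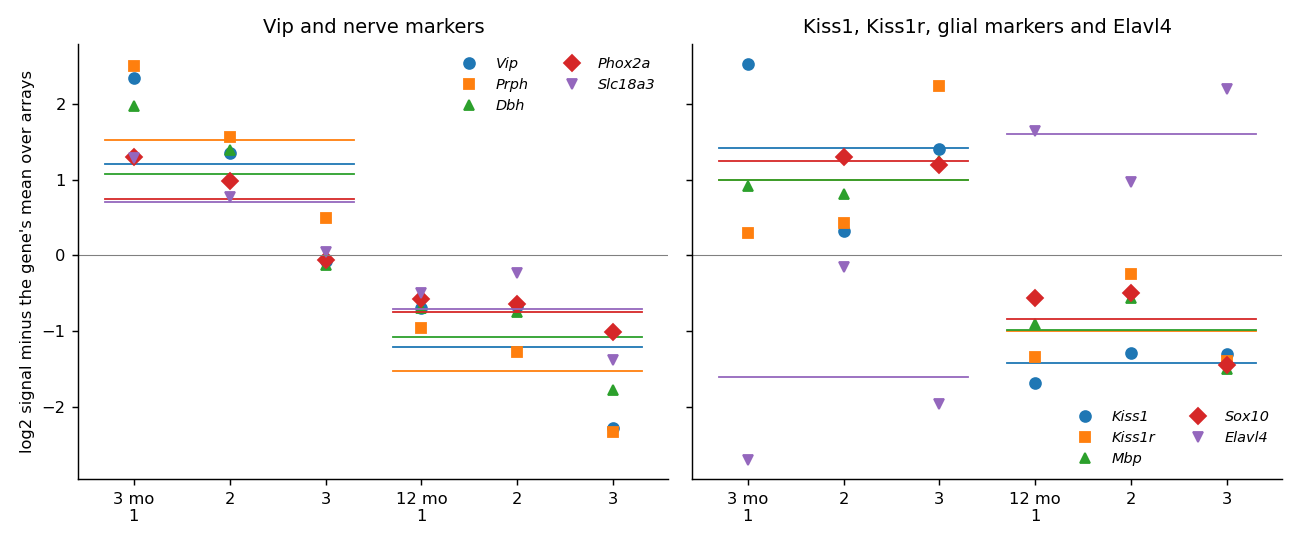
Normalized log2 signal minus the gene's own mean over the arrays (vertical axis) on each array, for Vip with nerve markers (left) and for Kiss1 and Kiss1r with glial markers and Elavl4 (right); short lines are means per age. The left panel holds only Prph, Dbh, Phox2a and Slc18a3 of the tested nerve markers, all lower at 12 months. After normalization Vip and Prph both peak on 3-month replicate 1 and are lowest on 12-month replicate 3. Elavl4, also from the nerve list, lies on the other side of 0 from the rest at both ages.

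The genes whose profile over the 6 arrays lay nearest to that of Kiss1 were found by the root mean square gap between profiles, each centred on its own mean, among 11147 genes. They were the olfactory receptors Or6c202e (gap 0.37) and Or1f32 (0.38), the RNA component of ribonuclease P, Rpph1 (0.43), dendrin, Ddn (0.44), and Igfbpl1 (0.44). All but Ddn were, like Kiss1, well above background on every 3-month array and on no 12-month array. For those 4 the 3-month mean was below 4.80, the mean over the 12-month arrays of the lowest signal that counted as well above background. No fold is therefore given. Ddn was well above background on all 6 arrays, at 8.99, 8.25 and 8.54 at 3 months and 5.64, 6.03 and 5.67 at 12 months. The nearest profiles were thus mostly those of probes that cleared background at 3 months only. The search looked for the profile of Kiss1 in these same data, and the lowest signal that cleared background was higher on every 12-month array. Nothing about Kiss1 is therefore read from these genes.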

How the data were processed

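Islet RNA of 3-month-old and 12-month-old male Wistar rats was hybridised to 6 Arraystar/Agilent arrays of 1 colour, 3 for each age, grouped by the age in the labels. The deposited scanner files hold the intensity of each spot as read, per the file headers, by Agilent Feature Extraction 11.0.1.1, background subtracted and not normalized between arrays. The authors also deposited a quantile-normalized log2 table of 12145 probes, used as an alternative. Arrays have no read depth, and their number limits the precision. Log2 intensities were averaged over the spots of a probe without outlier marks and quantile normalized. Of 24684 probes 17944 were well above background on at least 3 of 6 arrays, 17941 were tested, and none was saturated. The test of 12 against 3 months was two-sided, by lmFit and eBayes of limma 3.58.1 (R 4.3.3), and p-values were adjusted over all tested probes by the Benjamini-Hochberg method; 1502 had an adjusted p under 0.05. The step was tested on simulated data. The p-values measure the spread between the arrays of an age. The brightest probe stood for a gene, and RefSeq accessions gave the names.

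Where no array of an age was well above background, a fold was computed on the quantile-normalized scale. It set the brighter age's mean against, per dim array, either the lowest signal that cleared background or the signal of the probe, whichever was higher. All 10 genes were named, with the called genes of each list, the 3 largest other differences among genes well above background at the higher age, and the 5 genes nearest to Kiss1. The genes and lists were chosen with earlier results of these data known. The list counts hold some glial genes that are not reported here.

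The alternatives were a shift to a common 75th percentile, normexp with an offset of 50, the authors' log2 table, other filters, each array left out, a block by replicate number, plain t-tests and the mean over a gene's probes. The array design names another genome build than the promoter table, so that no coordinates are given for probes.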

Additional observations from a re-analysis of the deposited data

How the results depend on the processing

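Of all probes 1502 were called, of the 10 peptide genes 1 and of the genes of the 6 lists 7. Without a filter 2339 probes and 2 peptide genes were called, Kiss1 and Adcyap1. Adcyap1 cleared background on no array, so that its call is not read as a change. With only probes well above background on all 6 arrays 0 peptide genes were called, since Kiss1 was then not tested. The mean over a gene's probes called 2. With each array left out the counts ran from 208 to 2163 probes, from 0 to 3 peptide genes and from 0 to 8 list genes; Kiss1 was called without 12-month replicate 2 or 3-month replicate 2 only, and all probes fell to 208, 288, 322 and 459 without 12-month replicate 1, 12-month replicate 3, 3-month replicate 1 and 3-month replicate 3. The title of 12-month replicate 3 holds no number, so that its number is only a name, and the paired test set it against 3-month replicate 3 by elimination. The methods' unpaired t-test after adjustment called 437 probes, 0 peptide genes and 1 list gene, and the paired one 1, 0 and 0. The cause was not tested. The correlation of deviations between same-numbered arrays was −0.01 for number 1 and −0.31 for number 2. So few arrays cannot decide whether the numbers are a pairing, and no conclusion is drawn. A replicate block on the numbers called 0 probes, 0 peptide genes and 0 list genes, with Cartpt at −0.37. In that block replicate 3 of each age stood as a level of its own. The age difference therefore came from the arrays numbered 1 and 2 alone. That leaves too few arrays for the lack of calls to decide anything. Under the 75th percentile shift, normexp and the authors' table the 3 counts kept within 1.5 times their values, but under normexp the 1 peptide gene was Grp and not Kiss1. The differences of Kiss1, Kiss1r, Vip, Grp, Gal, Cartpt and Calca kept their sign under every alternative run; those of Tac1 and Penk did not. A block by scan could not be fitted, because each scan held 1 age. Signal over background limits Kiss1, Grp, Adcyap1 and Tacr1.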
